A study of Mus musculus with 14 samples.

Results

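Mouse embryos cloned by somatic cell nuclear transfer (SCNT: a body cell's nucleus is put into an oocyte that has lost its own) were compared at the 2-cell stage after overexpression of Kdm4d or of a mutant Kdm4d. These were 4 of the 14 RNA-seq libraries of the study, 2 of each kind, and all genes of the deposited table entered the comparison. Both groups carried donor nuclei labelled (C57BL/6J x CAST/EiJ) F1 in B6D2F1 recipient oocytes, and each library pooled 25 embryos. The donors were cumulus cells, the cells that surround the oocyte, and the labels' protocols name BDF1 females as their source, a conflict with the strain label that is not settled here. The mutation, the way of overexpression and the source of the replicates are not stated in the labels, so p-values measure only a spread between pools. Unless said otherwise, that spread was estimated from replicate pools of all 14 libraries with a weight per group, not from these 4 alone. SCNT 2-cell embryos without overexpression (pools of 40, same strain labels) and 2-cell embryos from in vitro fertilisation (IVF, pools of 25, C57BL/6J oocyte and CAST/EiJ sperm) served as points of reference, with 2 libraries each. Levels are FPKM, fragments scaled by transcript length and by all mapped fragments. Differences are on the log2(FPKM + 1) scale, which understates changes of genes near 0, and are Kdm4d minus mutant.

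Kdm4d belongs to a family of enzymes that remove methyl groups from lysine 9 of histone H3. Trimethylation at this lysine marks closed chromatin, and it is laid down by methyltransferases such as Suv39h1, Suv39h2 and Setdb1. In mice the main wave of transcription from the new embryonic genome comes at the 2-cell stage, when maternal RNA is being cleared. Part of this wave is poorly transcribed in SCNT embryos. A catalytically dead enzyme is the usual control for such an experiment, although the labels say only that Kdm4d was mutant.

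The Kdm4d transcript itself (chromosome 9, 14267025 to 14304926 on mm9) stood at 8879 and 2255 FPKM in the Kdm4d libraries and at 723 and 283.5 FPKM in the mutant libraries. Without overexpression its mean was 0.435 FPKM in SCNT and 0.587 FPKM in IVF 2-cell embryos. Both groups thus carried far more transcript than the reference embryos, and the 4 libraries did not overlap between groups. The difference was 3.30 (SE 0.56, adjusted p = 0.00294 by limma with Benjamini-Hochberg adjustment), but adjusted p = 0.107 in a fit to these 4 libraries alone. Kdm4d made up 3.05% and 0.728% of all FPKM in the Kdm4d libraries and 0.258% and 0.121% in the mutant libraries. The groups therefore differed in the amount of transcript as well as in the mutation, and the part of each in the results below cannot be told apart.

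The 4 libraries had the 4 lowest relative depths of the 14, from 0.415 to 0.507 of the deepest. Robust SDs between replicates, over 6250 genes, were 0.359 in Kdm4d and 0.371 in mutant embryos on the log2 scale, against 0.0926 to 0.182 in the other groups. Sums of FPKM were 290970 and 309781 for Kdm4d and 279958 and 233392 for the mutant. They were 186541 and 182189 in SCNT and 242088 and 235121 in IVF 2-cell libraries. The part of this in comparisons with the reference embryos below was not tested. Genes at 1 FPKM or more numbered 9853 and 9654 with Kdm4d and 10185 and 10788 with the mutant.

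With Kdm4d, 1444 of 13449 genes tested were higher than with the mutant (10.7%) and 800 were lower (5.95%), or 16.7% in either direction. Of these, 1285 rises and 643 falls were 2-fold or larger. All genes together had a median of -0.10. The share of calls that were rises was 64.3%, but 53.9% with quantile normalization, 47.0% with FPKM scaled to equal sums and 48.0% with upper quartile scaling. Scaling to equal sums moved the median of all genes to -0.21 and upper quartile scaling to -0.20, so the balance of rises and falls depends on the scaling. These counts come from a limma fit to all 14 libraries that weights groups by their spread. A fit to the 4 libraries alone made 0 calls at an adjusted p under 0.05, with 3896 genes (2068 higher) at an unadjusted p under 0.05. Leaving out a library changed the numbers to 899 rises and 338 falls without Kdm4d replicate 1, 173 and 81 without Kdm4d replicate 2, 492 and 292 without mutant replicate 1, and 1555 and 827 without mutant replicate 2.

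**Figure D1:**
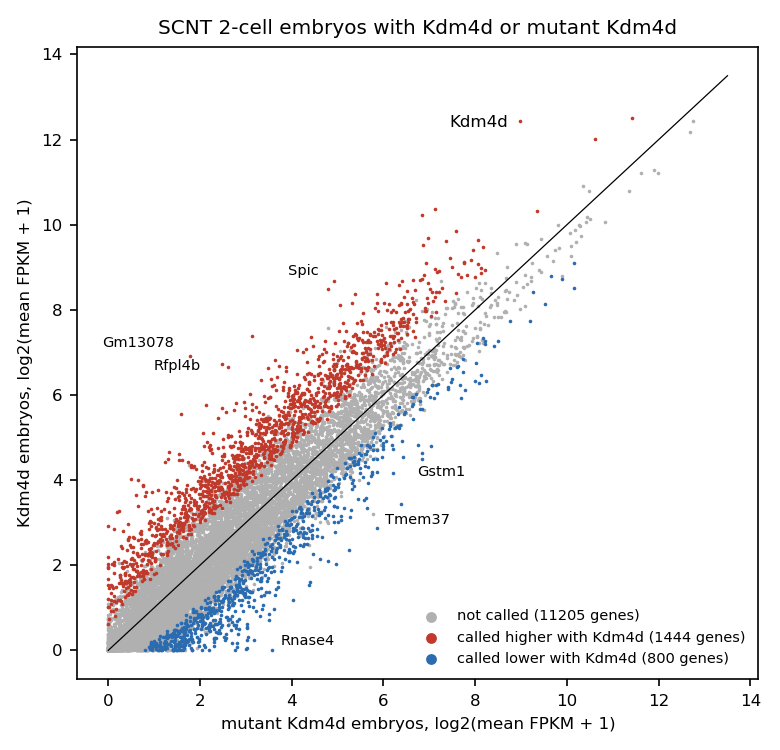
Each point is a gene, with log2(mean FPKM + 1) in the 2 mutant Kdm4d libraries on the x axis and in the 2 Kdm4d libraries on the y axis; the line marks equal levels. The 1444 genes called higher with Kdm4d (red) and the 800 called lower (blue) lie on both sides, and Kdm4d stands near the top at 5567 against 503 FPKM on average.

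The 12 largest rises named by rule were all of transcripts with a higher mean in IVF than in SCNT 2-cell embryos. Gm13078, a gene of the PRAME family cluster (chromosome 4, 143309358 to 143319061), stood at 107.5 and 133.4 FPKM with Kdm4d and at 0.146 and 4.69 FPKM with the mutant. Its mean was 1.69 FPKM in SCNT and 174 FPKM in IVF embryos, and its rise was 5.56 (SE 0.66, adjusted p = 0.000679). The Kdm4d libraries were thus near the IVF level and the mutant libraries near the SCNT level.

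Rfpl4b, of the ret finger protein-like family (chromosome 10, 38540347 to 38541585), stood at 135 and 76.0 FPKM with Kdm4d against 0.327 and 8.83 FPKM, a rise of 4.83 (SE 0.69, adjusted p = 0.00144). Its IVF mean was 261 FPKM, above both Kdm4d libraries. Obox3, a homeobox gene of the oocyte and early embryo (chromosome 7, 16210655 to 16225126), stood at 90.4 and 110.5 FPKM against 3.35 and 6.93 FPKM, a rise of 4.10 (SE 0.33, adjusted p = 0.000197). Of the 50-base stretches of Obox3, 26.8% also occur in other genes, so part of its reads may belong to relatives.

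Spic, which encodes an ETS-family transcription factor (chromosome 10, 88138015 to 88145768), rose by 3.74 (SE 0.69, adjusted p = 0.00423), from 18.1 and 40.1 FPKM with the mutant to 245 and 566 FPKM with Kdm4d. The spread within the Kdm4d group was wide, and its IVF mean, 425.5 FPKM, lay between the 2 libraries. Gm11517, one of the more abundant of these transcripts, stood at 927 and 1478 FPKM against 46.6 and 179.9 FPKM and at 1245 FPKM in IVF embryos, and its span overlaps that of Cbx1. Znrd1, a subunit gene of RNA polymerase I, stood at 239 and 314 FPKM against 5.27 and 59.5 FPKM, above its IVF mean of 141 FPKM. Sfi1, a centrin-binding protein gene, likewise exceeded its IVF mean of 97.5 FPKM, with 138 and 187 FPKM against 4.21 and 36.5 FPKM.

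The others of the 12 were the X-linked 1600025M17Rik (4.67), B020004J07Rik (4.003), the ubiquitin protease gene Dub1a (3.96), 1700019M22Rik (3.77) and the zinc finger gene Zfp791 (3.47). Their adjusted p-values ran from 0.000435 to 0.00228. Mutant replicate 2 was higher than mutant replicate 1 in each of the 12. That no library overlapped between groups was part of the rule that chose them.

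**Figure D2:**
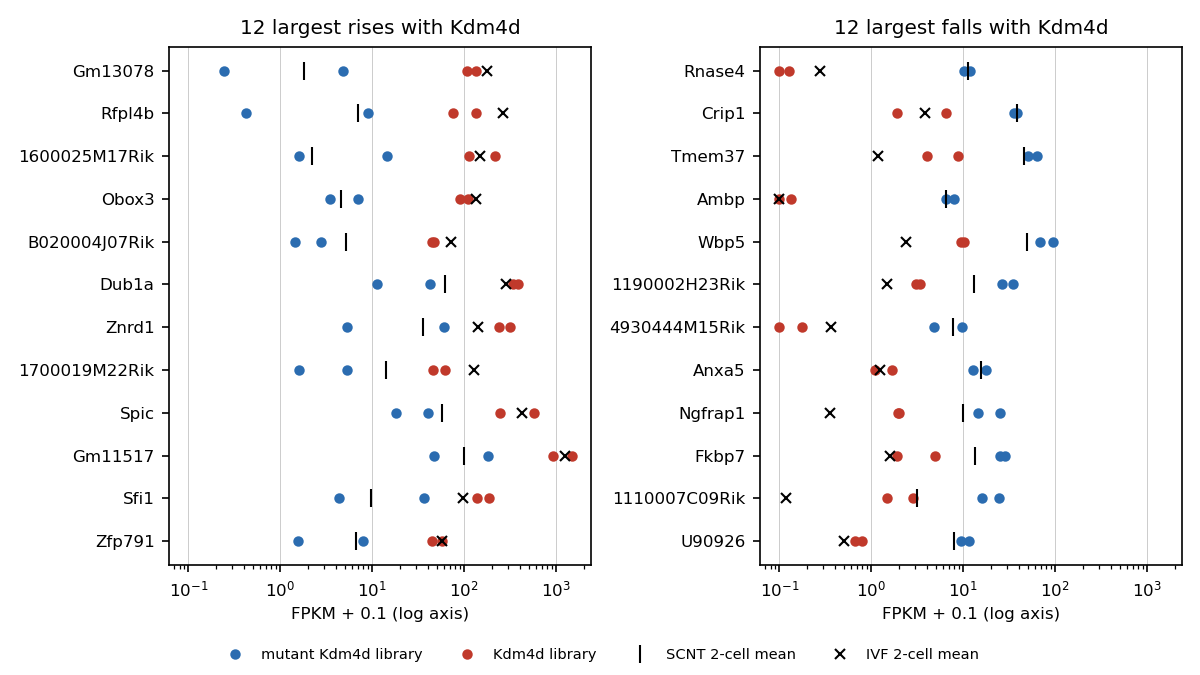
FPKM + 0.1 on a log axis for the 12 called genes with the largest rise (left) and the 12 with the largest fall (right): red points are the 2 Kdm4d libraries, blue points the 2 mutant libraries, bars and crosses the SCNT and IVF 2-cell means. Mutant libraries lie near the SCNT mean and Kdm4d libraries nearer the IVF mean for most of the 24 genes, for example 56.9 against 6.30 FPKM on average for Tmem37.

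Promoters of these genes are shown because 5 of the 7 rises with a single RefSeq start shared a feature. The lines give the 100 bases before the start (RefSeq, GRCm38.p6, 5′ to 3′ on the transcribed strand), with TATAA in capitals where it falls in the last 50 bases.
Gm13078 (chr4:143719351-143719450, +): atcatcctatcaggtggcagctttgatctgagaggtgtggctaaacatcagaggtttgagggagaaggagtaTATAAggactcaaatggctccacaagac
Rfpl4b (chr10:38821780-38821879, -): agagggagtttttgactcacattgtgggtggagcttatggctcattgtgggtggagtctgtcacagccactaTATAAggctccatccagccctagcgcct
Obox3 (chr7:15639778-15639877, -): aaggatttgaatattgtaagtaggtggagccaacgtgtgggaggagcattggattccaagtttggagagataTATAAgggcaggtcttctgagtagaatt
B020004J07Rik (chr4:101844023-101844122, -): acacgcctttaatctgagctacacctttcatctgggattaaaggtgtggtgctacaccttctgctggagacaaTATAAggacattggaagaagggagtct
Dub1a (chr7:104842584-104842683, -): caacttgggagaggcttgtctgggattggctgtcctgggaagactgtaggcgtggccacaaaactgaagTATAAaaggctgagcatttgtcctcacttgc
Spic (chr10:88683024-88683123, -): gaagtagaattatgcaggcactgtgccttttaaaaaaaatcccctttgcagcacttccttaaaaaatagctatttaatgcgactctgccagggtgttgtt
1600025M17Rik (chrX:56317508-56317607, +): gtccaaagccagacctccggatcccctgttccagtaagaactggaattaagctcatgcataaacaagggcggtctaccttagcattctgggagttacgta
Crip1 (chr12:113151912-113152011, +): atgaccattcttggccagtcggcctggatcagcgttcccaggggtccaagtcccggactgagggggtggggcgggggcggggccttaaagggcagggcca
Tmem37 (chr1:120073781-120073880, -): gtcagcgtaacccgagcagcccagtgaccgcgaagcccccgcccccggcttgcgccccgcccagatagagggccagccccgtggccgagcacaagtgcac

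In the first 5 of these lines TATAA begins 27 to 31 bases before the start, the usual place of a TATA box, the element bound by the TATA-binding protein. Spic and 1600025M17Rik lack these letters there. Of the 11 largest falls with a single start, 1190002H23Rik alone had them, 29 bases before the start, and Crip1 and Tmem37 did not. The share was 4.51% of the 10744 tested genes with a promoter in the table and also 4.51% of the 1174 such genes called higher. It was 8.01% of the 624 called lower and 7.05% of the 156 with rises of 2 to 3. The feature was thus common among the 7 of the 12 largest rises with a single start, and the rest of the 12 were not examined. It was no more frequent among called rises in general, and it was looked for after the sequences were seen.

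CpG dinucleotides in the 250 bases before the start numbered 0 for Gm13078, 2 for Rfpl4b, 1 each for Obox3, B020004J07Rik, Dub1a and Spic, and 7 for 1600025M17Rik. They numbered 13 for Crip1 and 17 for Tmem37, but only 2 for Ambp. The median was 15 over all tested genes with a promoter, 15 for genes called higher and 13 for genes called lower. Genes with rises of 2 to 3 had a median of 11 and those with smaller rises one of 16. For rises of 3 or more only 27 of 40 genes (67.5%) were in the table, so the count over that group is void.

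The 12 largest falls were all of transcripts with a higher mean in SCNT than in IVF 2-cell embryos. Rnase4, a secreted ribonuclease gene (chromosome 14, 51710752 to 51725826), was listed at 0.0274 and 0 FPKM with Kdm4d and stood at 10.15 and 11.7 FPKM with the mutant. SCNT embryos had a mean of 11.0 FPKM and IVF embryos 0.178 FPKM, and the fall was -3.55 (SE 0.51, adjusted p = 0.00162). Its span overlaps that of Ang, and whether the counting used strand is not given. Rnase4 was the 1 gene at 10 FPKM or more in both mutant libraries and below 1 FPKM in both Kdm4d libraries.

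Ambp, which encodes the precursor of alpha-1-microglobulin and bikunin, behaved alike, with 0.0351 and 0 FPKM against 6.34 and 7.80 FPKM (-2.98, SE 0.31, adjusted p = 0.000367). Tmem37, a calcium channel subunit-like gene (chromosome 1, 121963954 to 121970357), stood at 3.96 and 8.65 FPKM against 50.4 and 63.5 FPKM, a fall of -3.06 (SE 0.37, adjusted p = 0.000702). Its IVF mean was 1.09 FPKM, below both Kdm4d libraries. Anxa5, the gene of the phospholipid-binding annexin A5, stood at 1.57 and 0.991 FPKM against 12.8 and 17.7 FPKM, with 1.13 FPKM in IVF and 266 FPKM in donor cells.

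Several others of the 12 were abundant in the donor cells. Crip1, a LIM-domain protein gene, had a donor mean of 208 FPKM and stood at 6.37 and 1.81 FPKM with Kdm4d against 38.6 and 35.9 FPKM. The closely spaced X-linked genes Wbp5 and Ngfrap1 (-2.93 and -2.80) had donor means of 1347 and 81.9 FPKM. 1190002H23Rik (-2.92) had a donor mean of 549.5 FPKM. U90926 (-2.79, adjusted p = 0.0116) was instead at 0.687 FPKM in donor cells and 4930444M15Rik (-2.91) at 1.25 FPKM. Fkbp7, a prolyl isomerase gene of the endoplasmic reticulum, and 1110007C09Rik completed the list at -2.79 each.

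Genes that differed between SCNT and IVF embryos were then followed in the Kdm4d and mutant libraries, whose values do not enter the SCNT and IVF means. Of 1227 genes called at least 2-fold lower in SCNT than IVF 2-cell embryos, 786 were higher with Kdm4d than with the mutant (64.1%, against 10.7% of all genes) and 0 were lower. By limma, 969 and 3 members respectively had an unadjusted p under 0.05. The median difference was 1.30 (quartiles 0.84 and 1.79). Of 1871 genes higher in SCNT embryos, 424 were lower with Kdm4d (22.7%, against 5.95% of all genes) and 10 were higher, with a median of -0.68. The remaining 10351 genes gave 648 rises and 376 falls, with a median of -0.09.

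Every pairing of a Kdm4d with a mutant library had the same signs. In the 4 pairings the median of the 1227 genes ran from 1.01 to 1.59, and that of the 1871 genes from -0.79 to -0.60. The count of 786 rises became 564 without Kdm4d replicate 1, 156 without Kdm4d replicate 2, 379 without mutant replicate 1 and 738 without mutant replicate 2. The count of 424 falls became 184, 69, 223 and 330 in the same order.

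**Figure D3:**
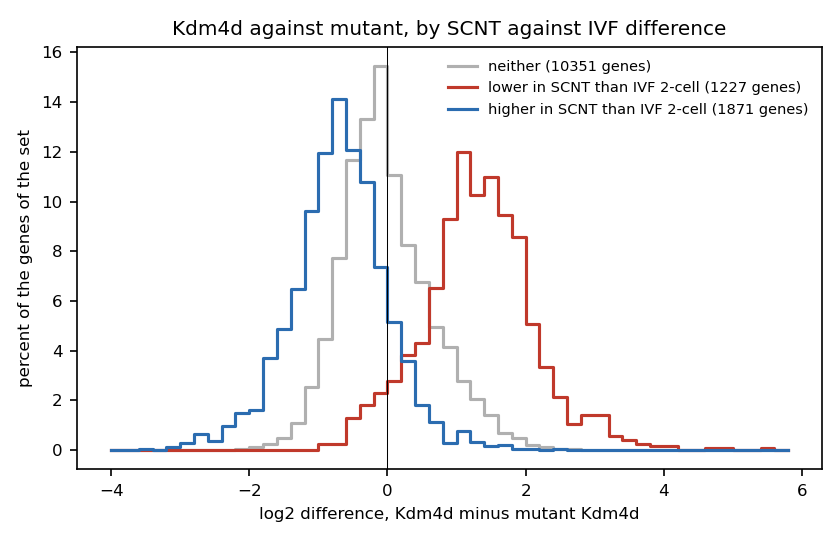
Histograms of the log2 difference, Kdm4d minus mutant Kdm4d (x axis), as the percent of the genes of each set (y axis), in steps of 0.2. Genes lower in SCNT than IVF 2-cell embryos (red, 1227) centre at 1.30, genes higher in SCNT (blue, 1871) at -0.68 and the other 10351 genes (grey) at -0.09.

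A position from 0 at the SCNT mean to 1 at the IVF mean was computed per gene and library on the log2 scale. Over the 1227 genes its median was 0.81 and 0.98 in the Kdm4d libraries and -0.06 and 0.12 in the mutant libraries. The Kdm4d libraries were nearer the IVF mean for 81.3% and 84.8% of these genes and the mutant libraries for 12.7% and 14.2%. Over the 1871 genes the median position was 0.58 and 0.59 with Kdm4d and 0.17 and 0.05 with the mutant. For genes higher in SCNT, 57.9% and 58.8% were nearer IVF with Kdm4d and 21.8% and 9.89% with the mutant. On FPKM without further scaling, the 2 Kdm4d libraries were thus further along for the transcripts SCNT embryos lacked than for those they had in excess. Sums of FPKM were higher in the Kdm4d libraries than in either reference group, as given above. Positions were not computed under another scaling, and the part of the sums in this difference was not tested.

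Some members stayed behind in both libraries of a group. Of the 1227 genes, 118 (9.62%) were nearer the SCNT mean in both Kdm4d libraries, against 987 (80.4%) in both mutant libraries. Of the 1871 genes, 497 (26.6%) were nearer the SCNT mean in both Kdm4d libraries, against 1380 (73.8%) in both mutant libraries.

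**Figure D4:**
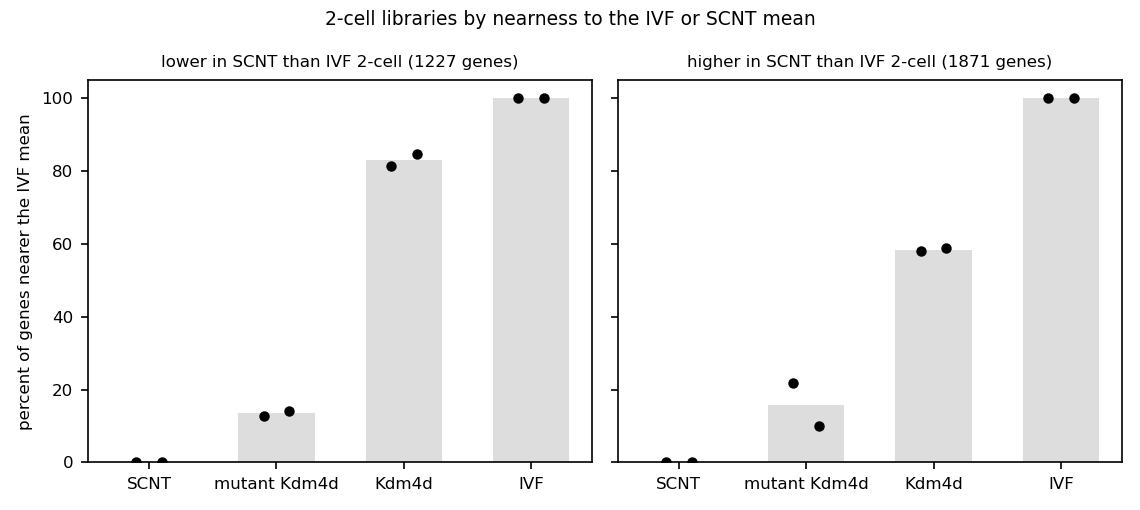
Percent of genes nearer the IVF than the SCNT mean (y axis) in each 2-cell library (points; bars are means of 2) for genes lower (left) or higher (right) in SCNT. The SCNT and IVF libraries define the scale and sit near 0 and 100 by construction, the Kdm4d libraries are at 81.3% and 84.8% (left) and 57.9% and 58.8% (right), and the mutant libraries are at or below 21.8%.

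Single genes differed in how far they moved. Among the 10 with the largest deficit in SCNT embryos, 9 were higher with Kdm4d, and the exception was Rpl39l, a ribosomal protein gene relative best known from germ cells. Rpl39l stood at 13.4 and 5.88 FPKM with Kdm4d and 10.2 and 5.28 FPKM with the mutant, against 161 FPKM in IVF embryos (0.24, SE 0.36, adjusted p = 0.684). The X-linked 1700013H16Rik rose and stood at 8.72 and 4.34 FPKM against a listed 0 in both mutant libraries, still far from its IVF mean of 144.5 FPKM. Rpl10l, another ribosomal protein gene relative, reached 4.46 and 4.54 FPKM of the 48.2 FPKM in IVF embryos.

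Nup62cl, on the X chromosome, reached 10.9 and 6.03 FPKM against 1.42 and 1.60 FPKM with the mutant and 41.3 FPKM in IVF embryos. Zscan4d, a marker of the 2-cell state, stood at 21.2 and 9.61 FPKM against 0.556 and 0.269 FPKM, with 39.0 FPKM in IVF embryos, but 49.1% of its stretches are shared with its relatives. Rises past the test were therefore not always rises to the IVF level.

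Among the 10 genes with the largest excess in SCNT embryos, 8 were lower with Kdm4d. Gstm1, a glutathione transferase gene, stood at 19.7 and 27.7 FPKM against 114.6 and 111.5 FPKM (-2.23, SE 0.34, adjusted p = 0.00182) and at 0.203 FPKM in IVF embryos. Impact, an imprinted gene, stood at 41.4 and 95.7 FPKM against 164 and 270 FPKM (-1.73, adjusted p = 0.0137) and at 5.56 FPKM in IVF embryos. Both thus remained above the IVF level with Kdm4d.

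Ripk3, a kinase gene of necroptosis, fell by 1.53, from 12.3 and 23.8 FPKM to 8.03 and 3.37 FPKM. Slc38a2, an amino acid transporter gene, stood at 8.84 and 5.21 FPKM against 22.6 and 39.9 FPKM and at 0.198 FPKM in IVF embryos. Mrps18a, a mitochondrial ribosomal protein gene, did not separate the groups (16.6 and 31.3 against 14.2 and 33.5 FPKM, adjusted p = 0.974). For the interferon-induced Ifitm2 the groups did not overlap, at 5.88 and 5.11 against 7.97 and 13.1 FPKM, but the difference did not pass (-0.79, adjusted p = 0.289).

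Sets drawn from the IVF and donor libraries were described in the same way. Of 1509 genes that rose at least 4-fold from the IVF 1-cell to the IVF 2-cell stage, 709 were higher with Kdm4d (47.0%) and 9 lower, with a median of 1.13. Of the 645 of these that were also low in SCNT embryos, 474 were higher (73.5%), with a median of 1.60. Of 1217 genes that fell over the same interval, 7 were higher and 186 lower (15.3%), with a median of -0.54. Of 688 genes at least 8-fold higher in donor cells than in IVF embryos of both stages, 11 were higher and 87 lower (12.6%), with a median of -0.34. The 255 donor genes that were high in SCNT embryos gave 70 falls (27.5%), against 22.7% of all 1871 genes high in SCNT embryos. The 238 genes that fell in IVF and were high in SCNT embryos gave 77 falls (32.4%).

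Progress through the SCNT stages also differed between libraries, a check added after the values were seen. On a scale from 0 at SCNT 1-cell to 1 at SCNT 2-cell, the median position of 832 genes that fall between these stages was 0.83 and 0.96 with Kdm4d and 0.71 and 0.83 with the mutant. Over 1160 genes that rise, it was 1.01 and 1.13 with Kdm4d and 0.81 and 0.97 with the mutant. In both sets mutant replicate 1 was the least advanced of the 4, and the part of this in the results was not tested.

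On the X chromosome 69 of 492 genes were higher with Kdm4d (14.02%) and 29 were lower. This was the largest share of rises of any chromosome tested, closely followed by chromosomes 4 (13.4%) and 17 (13.1%), and the smallest was 6.90% on chromosome 6. Of the genes low in SCNT embryos, 78 lay on the X chromosome and 39 of them rose (50%, median 1.04), against 746 of 1144 on autosomes (65.2%, median 1.32). Both Kdm4d libraries stayed nearer the SCNT mean for 21 of the 78 X-linked genes (26.9%) and 93 of the autosomal genes (8.13%). The genes high in SCNT embryos went the other way. Of these, 16 of 46 X-linked genes fell (34.8%), against 408 of 1825 autosomal genes (22.4%). Both Kdm4d libraries stayed nearer the SCNT mean for 8 of the 46 (17.4%) and 489 of the 1825 (26.8%). Xist, the RNA that silences an X chromosome, was named after its values were seen. It stood at 0.603 and 0.312 FPKM with Kdm4d against 1.54 and 2.74 FPKM with the mutant (-1.09, SE 0.32, adjusted p = 0.0344), and its means were 4.78 FPKM in SCNT and 0.193 FPKM in IVF embryos. Whether X-linked and autosomal shares differ was not tested. Cumulus donors are female, whereas IVF pools can hold embryos of both sexes. The part of sex in X-linked differences between SCNT and IVF embryos, Xist included, cannot be told apart.

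Groups of genes with known roles are described next by their counts, beside 10.7% called higher and 5.95% called lower over all genes and a median of -0.10. The list of 2-cell-stage transcripts, genes expressed in a burst at this stage, had 41 tested members of 67 listed, and 31 rose (75.6%), 1 fell and the median was 1.96. The groups did not overlap for 39 members with Kdm4d higher and for 1 with Kdm4d lower, which held for 27.7% and 33.8% of all genes respectively. Multicopy families supply most of the list, and 25 members have over 30% of their stretches shared with other genes. Of the 16 others, 11 rose and 1 fell, with a median of 1.82.

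Sp110, a nuclear body gene from a repeated locus, stood at 121.9 and 145.8 FPKM with Kdm4d against 10.6 and 27.2 FPKM. Ubtfl1, an HMG-box gene of early embryos, stood at 64.8 and 83.65 FPKM against 6.86 and 15.7 FPKM (2.70, adjusted p = 0.00303). Kdm5b, which encodes a demethylase of histone H3 lysine 4, stood at 64.2 and 85.65 FPKM against 19.05 and 28.5 FPKM (1.63, adjusted p = 0.0172). Zfp352, a marker of the 2-cell stage, had 159 and 94.6 FPKM against 28.2 and 73.6 FPKM and did not pass the test (adjusted p = 0.0697). Gm13152, a zinc finger gene, was the member that fell, at 62.7 and 85.2 FPKM against 153 and 109.7 FPKM (-0.82, adjusted p = 0.0371). The 31 rises of the list became 22 and 19 without Kdm4d replicate 1 or 2, and 24 and 27 without mutant replicate 1 or 2.

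Of 7 tested genes of the Obox and Crxos homeobox family, 3 rose and 0 fell (by limma, 3 and 1 at an unadjusted p under 0.05). Obox6 stood at 576.7 and 1080 FPKM against 63.7 and 183 FPKM, a rise of 2.86 (SE 0.48, adjusted p = 0.00288), and at 705 FPKM in IVF embryos.

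Among 29 candidate regulators of genome activation, 13 rose (44.8%) and 1 fell, with a median of 0.83. Tead4, a transcription factor of the later trophectoderm, stood at 10.45 and 21.7 FPKM against 2.26 and 4.20 FPKM (1.97, adjusted p = 0.00574), above its IVF mean of 4.46 FPKM. Gata1, an X-linked zinc finger factor of blood lineages, stood at 28.1 and 45.5 FPKM against 5.66 and 13.2 FPKM (1.92, adjusted p = 0.00924), above its IVF mean of 15.3 FPKM.

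Nr5a2, a nuclear receptor of the early embryo, rose by 1.87, and the paired regulators Dppa2 and Dppa4 rose by 1.64 and 1.40. The 3 subunit genes of nuclear factor Y rose together, Nfya by 1.38, Nfyb by 1.24 and Nfyc by 0.98. Sebox, a maternal homeobox gene, was the 1 that fell (-0.88, adjusted p = 0.0455), from 73.4 and 98.2 FPKM to 49.8 and 41.9 FPKM. The 13 rises became 1 without Kdm4d replicate 2, 8 without Kdm4d replicate 1 and 4 without mutant replicate 1.

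Genes of ribosome production formed the second block. Of 89 ribosome biogenesis genes, 48 rose (53.9%) and 0 fell (by limma, 73 and 0 at an unadjusted p under 0.05), with a median of 1.12. Their groups did not overlap with Kdm4d higher for 83 members, a pattern seen in 27.7% of all genes. Imp3, of the small-subunit processome, stood at 53.75 and 70.7 FPKM against 7.71 and 11.2 FPKM, a rise of 2.60 (SE 0.38, adjusted p = 0.00164). Nhp2, of the H/ACA ribonucleoprotein, stood at 379 and 436.5 FPKM against 56.7 and 111.7 FPKM, a rise of 2.34 (SE 0.35, adjusted p = 0.00182).

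Other members of the pathway rose as well, among them the large-subunit factor Bop1 (2.23), the RNA polymerase I subunits Polr1e (2.14) and Polr1a (1.06), and nucleolin (Ncl, 1.12). Without Kdm4d replicate 1 or 2 the 48 rises became 39 and 7, and without mutant replicate 1 or 2 they became 19 and 54.

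Of 83 cytosolic ribosomal protein genes, 34 rose (41.0%) and 1 fell, with a median of 0.90, although 44 of them share over 30% of their stretches with copies elsewhere. Of the other 39, 17 rose and 0 fell. Rpl36al stood at 102 and 114 FPKM against 18.6 and 30.4 FPKM (2.13, adjusted p = 0.00181). Rpl15 was the 1 that fell, at 2.25 and 2.00 FPKM against 7.90 and 5.94 FPKM, and its value is uncertain because 30.85% of its stretches are shared. The 34 rises became 17, 2, 10 and 31 without Kdm4d replicate 1, Kdm4d replicate 2, mutant replicate 1 and mutant replicate 2.

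Translation and protein handling followed. Of 46 translation initiation factor genes, 15 rose and 1 fell, with a median of 0.62. Eif2b4, of the exchange factor for initiation factor 2, rose by 2.07 (adjusted p = 0.00362), and Eif4e1b, an oocyte form of the cap-binding protein, fell by 1.36 (adjusted p = 0.0248). Of 22 aminoacyl tRNA synthetase genes, 8 rose and 0 fell (by limma, 10 and 1 at an unadjusted p under 0.05), led by Rars (67.5 and 106.6 against 20.1 and 25.2 FPKM). Of 29 heat shock protein and chaperonin genes, 9 rose and 2 fell, with Cct3 of the chaperonin ring at 118 and 166 FPKM against 24.6 and 47.3 FPKM (2.00, adjusted p = 0.00265). Of 50 proteasome genes, 10 rose and 1 fell, the latter the ATPase gene Psmc6 (-1.21). This balance depends on the scaling, with 3 rises and 3 falls after quantile normalization, 1 and 4 with equal sums, and 5 and 5 with upper quartile scaling. Without Kdm4d replicate 2 the rises became 0 for initiation factor and proteasome genes and 1 each for synthetase and heat shock genes. Without mutant replicate 1 they became 5, 2, 2 and 5 in the same order.

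Mitochondrial genes were more divided. Of 75 mitochondrial ribosomal protein genes, 11 rose and 3 fell, with a median of 0.36, but 8 rose and 8 fell after quantile normalization. The 11 rises became 1 without Kdm4d replicate 2 and 3 without mutant replicate 1. Mrpl55 stood at 30.7 and 35.9 FPKM against 3.38 and 4.30 FPKM (2.83, SE 0.26, adjusted p = 0.00024), above its IVF mean of 15.4 FPKM. Mrps31 instead stood at 1.44 and 1.43 FPKM against 7.70 and 10.3 FPKM (-2.03, adjusted p = 0.00625). Of 75 genes of oxidative phosphorylation, 6 rose and 5 fell, but falls outnumbered rises under each other scaling, with 3 rises and 14 falls after quantile normalization, 3 and 11 with equal sums, and 4 and 12 with upper quartile scaling. Uqcrq rose (1.65) and Ndufs6 fell (-1.96, from 31.4 and 27.4 FPKM to 9.17 and 4.95 FPKM).

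Of 87 spliceosome genes, 24 rose (27.6%) and 2 fell, with a median of 0.52. Snrnp35, of the minor spliceosome, rose by 2.36 (adjusted p = 0.00292), and Crnkl1 by 1.85. Lsm3, of the ring around U6 small nuclear RNA, fell by 1.80, from 243 and 166 FPKM to 41.6 and 77.9 FPKM, and its SCNT and IVF means were 146 and 22.1 FPKM. Of 78 genes of DNA replication and the cell cycle, 17 rose and 2 fell. Gins3, of the replicative helicase complex, stood at 7.44 and 22.3 FPKM against 2.69 and 3.42 FPKM, and the mitotic kinase genes Cdk1 (1.64), Aurka (1.38) and Aurkb (1.21) rose. Ccnd2 fell (-1.57, adjusted p = 0.00772). Without Kdm4d replicate 2 the rises became 3 for spliceosome genes and 2 for replication and cell cycle genes, and without mutant replicate 1 they became 7 for each list.

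**Figure D5:**
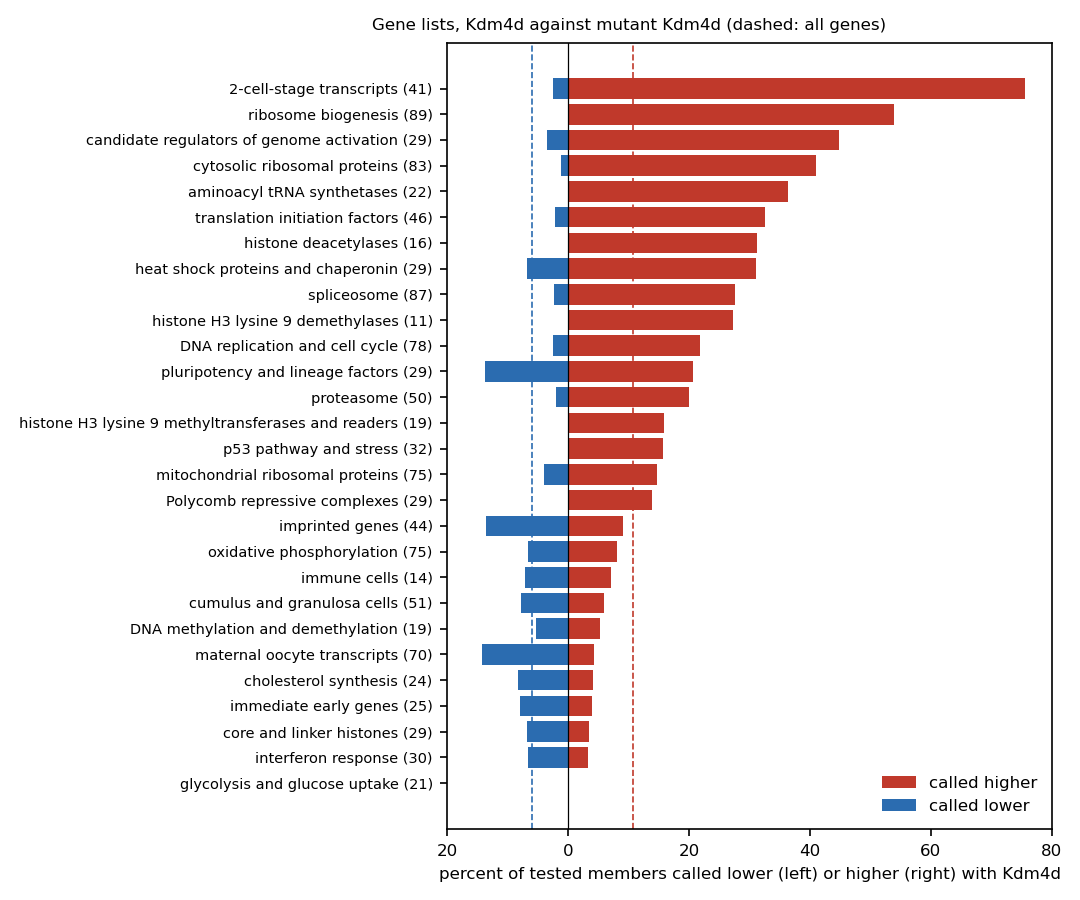
Percent of tested members called higher (red, right) or lower (blue, left) with Kdm4d than mutant Kdm4d, for the gene and marker lists with at least 10 tested members (number in brackets); dashed lines mark 10.7% and 5.95% over all genes. The 2-cell-stage transcripts (75.6%) and ribosome biogenesis (53.9%) lead, and maternal oocyte transcripts have more falls (14.3%) than rises (4.29%).

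Genes that write, read and erase the histone mark itself form short lists. The shares over all genes were 10.7% called higher and 5.95% called lower, so 0 called falls in lists this short says little. Of 11 demethylase genes of histone H3 lysine 9, 3 rose (27.3%), Kdm4d itself included, and 0 fell (by limma, 3 and 0 at an unadjusted p under 0.05). Its relatives Kdm4a (5.83 and 7.81 against 1.43 and 2.66 FPKM, 1.38, adjusted p = 0.02) and Kdm4c (30.8 and 40.7 against 12.1 and 18.0 FPKM, 1.21, adjusted p = 0.0384) were the other members to rise. Of 19 methyltransferase and reader genes, 3 rose (15.8%) and 0 fell (by limma, 8 and 1 at an unadjusted p under 0.05). Suv39h1 stood at 16.6 and 20.05 FPKM against 4.32 and 7.73 FPKM (1.497, SE 0.29, adjusted p = 0.00572), close to its IVF mean of 15.8 FPKM. Atf7ip (1.38), a partner of Setdb1, and Trim28 (1.31), the corepressor that recruits it, also rose, whereas Setdb1 (0.79, adjusted p = 0.0673) and Suv39h2 (-0.55, adjusted p = 0.162) did not pass. In both lists, calls other than that of Kdm4d, the overexpressed transcript, did not hold without Kdm4d replicate 2 or without mutant replicate 1.

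Other chromatin lists differed in their share of calls. Of 16 histone deacetylase genes, 5 rose (31.25%) and 0 fell (by limma, 5 and 1 at an unadjusted p under 0.05), Sirt6 by 1.56 from 7.06 and 9.28 FPKM to 26.8 and 24.7 FPKM. Of 29 Polycomb genes, 4 rose (13.8%) and 0 fell (by limma, 7 and 1 at an unadjusted p under 0.05), Pcgf5 by 1.71. Without Kdm4d replicate 2 no deacetylase or Polycomb gene was called in either direction, and without mutant replicate 1 there was 1 rise in each list. Of 19 genes of DNA methylation and demethylation, Dppa3 (1.10, adjusted p = 0.0142), the maternal protector of methylation, was the 1 that rose, and Dnmt3l (-0.91, adjusted p = 0.0193) the 1 that fell. Of 29 core and linker histone genes, 1 rose and 2 fell, the falls being Hist1h2aa (-1.80) and the macroH2A gene H2afy (-1.53). Medians of the DNA methylation, Polycomb, glycolysis, interferon, oxidative phosphorylation and pluripotency lists changed sign under at least 1 scaling, so no direction is given for them.

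Maternal transcripts, stored in the oocyte and cleared after fertilisation, went the other way. Of 70 tested, 3 rose and 10 fell (14.3%), with a median of -0.44. Bmp15, the X-linked oocyte growth factor gene, stood at 259 and 163 FPKM against 680 and 498 FPKM (-1.497, SE 0.26, adjusted p = 0.00299), with 261 FPKM in SCNT and 107 FPKM in IVF embryos. Rgs2 fell by 1.34, whereas Zar1l rose by 2.11 (23.2 and 30.9 against 6.68 and 4.40 FPKM) and the zona pellucida gene Zp3 by 1.34. The 10 falls became 1 without Kdm4d replicate 2 and 2 without mutant replicate 1, and 21 after quantile normalization. Mutant replicate 1 was also the least advanced in stage, as given above, and the part of this in the falls was not tested.

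Of 44 imprinted genes, 4 rose and 6 fell. Usp29 rose by 2.48 (13.2 and 25.7 against 2.18 and 2.80 FPKM), with 33.6% of its stretches shared, and Mcts2 by 1.70. Sfmbt2, a Polycomb-related gene, fell by 2.27, from 5.79 and 12.95 FPKM to 1.62 and 0.553 FPKM, against means of 19.6 FPKM in SCNT and 1.89 FPKM in IVF embryos. Of 7 tested Magea and Xlr cluster genes, Xlr3a fell (-0.97, 48.1% of stretches shared) and 0 rose (by limma, 0 rises and 3 falls at an unadjusted p under 0.05).

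Of 29 pluripotency and lineage factors, 6 rose, 5 of them also counted among the regulators above, and 4 fell. The falls were Krt18 (-1.84), a keratin of early epithelia, Tdgf1 (-1.35), Id2 (-1.23) and Gata3 (-1.05). Nanog and Pou5f1, the core pluripotency genes, stood below 10 FPKM in all 4 libraries and did not pass (adjusted p = 0.54 and 0.705).

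Stress and signalling genes are given next. Of 32 p53 and stress genes, 5 rose (15.6%) and 0 fell (by limma, 9 and 4 at an unadjusted p under 0.05), Sesn2 by 1.85 and the stress response regulator Atf4 by 1.49. Without Kdm4d replicate 2 or mutant replicate 1, 0 of them were called. Of 25 immediate early genes, Ppp1r15a rose (66.6 and 81.85 against 8.75 and 24.9 FPKM) and 2 fell. Of 30 interferon response genes, Irf3 rose and 2 fell, the falls being Usp18 (-2.38, adjusted p = 0.00286) and Ddx58 (-1.497, adjusted p = 0.00323), a sensor of viral RNA. Of 24 cholesterol synthesis genes, 1 rose and 2 fell. Of 21 glycolysis and glucose uptake genes, 0 passed in either direction (by limma, 3 rises and 1 fall at an unadjusted p under 0.05).

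Markers of other cell types are given beside 10.7% called higher and 5.95% called lower over all genes. Of 51 tested cumulus and granulosa markers, 3 rose (5.88%) and 4 fell (7.84%), with a median of -0.16. The groups did not overlap for 27 of the 51 with Kdm4d lower and for 5 with Kdm4d higher. Over all genes these patterns held for 33.8% and 27.7%. The summed level over 56 markers was 218 and 296 FPKM with Kdm4d and 221 and 215.5 FPKM with the mutant, against 22820 and 28910 FPKM in donor cells. Gja1 alone gave 94.95 and 158 FPKM with Kdm4d and 46.9 and 43.2 FPKM with the mutant, so the sums hide the lower markers. Gja1 (1.43) and Nr5a2, both also embryonic genes, were among the rises, and Fst, the follistatin gene, fell by 2.71, from 5.32 and 6.66 FPKM to 0 and 0.125 FPKM. Of 14 immune markers, 1 rose and 1 fell (7.14% each). Sums over 22 immune markers were 175.8 and 230.1 FPKM with Kdm4d, 105.3 and 143.5 FPKM with the mutant, and 172.9 and 162.7 FPKM in IVF embryos. Of 6 oviduct epithelial markers, 1 fell (16.7%) and 0 rose (by limma, 2 falls and 1 rise at an unadjusted p under 0.05). This list and the next ones are too short to say much about a share of calls. No marker of endothelial cells (4 tested), red blood cells (1) or sperm (3) was called (by limma, 1 sperm marker and 0 of the others had an unadjusted p under 0.05). The red blood cell marker Hba-a2 did not overlap between groups, at 4.72 and 1.065 FPKM with Kdm4d against 22.1 and 18.2 FPKM. Of its stretches, 88.5% are shared with other genes.

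Called rises also lay side by side. In 10 places at least 4 neighbouring tested genes were all higher with Kdm4d, and 0 such runs of falls were found. Rises were the more frequent call, at 10.7% against 5.95% of all genes. How many runs these shares alone would give was not tested. On the X chromosome, Hdac6, Gata1, Glod5 and Suv39h1 (7507248 to 7651886) rose together with a median of 1.71, and 0 of these 4 share over 30% of their stretches. Others without such sharing were Lctl, Zwilch, Rpl4 and Snapc5 on chromosome 9, Zkscan1, Zscan21, Zfp113 and Cops6 on chromosome 5, and Nploc4 to Arl16 on chromosome 11. The run of 5 on chromosome 12 (BB287469, Gm4027, Gm1995, Gm2016 and Gm2022) consists of near-identical relatives, so its genes cannot be counted apart. Over 30% of stretches were also shared for all 4 genes of the run on chromosome 1. The same held for 4 of 5 genes in each run on chromosome 4 and for 2 of 4 on chromosome 13.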

How the data were processed

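RNA was measured in 14 libraries of 7 groups, 4 of which are compared here. Per the submitters' processing notes, the tools were Novoalign, with no version, and Cufflinks 2.0.2, and the build was mm9. Per the labels' protocols, libraries came from SMARTer cDNA, Covaris fragmentation and NEBNext Ultra, with single-end reads of 50 bases. The authors deposited 1 table of FPKM with 23697 rows. Nothing on its filters, annotation, use of strand or treatment of multiply mapped reads is given in the sources used here. FPKM holds no read counts, and the depth of each library is known only relative to the deepest, from the steps between low values.

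Rows of short RNAs (810) were dropped, and 630 rows with a symbol in common were summed to give 22487 symbols. Tests covered the 13449 genes that reached 1 FPKM in 2 or more libraries. Group means of log2(FPKM + 1) were fitted in limma 3.58.1 (R 4.3.3) over all 14 libraries, with an intensity trend, a weight per group in which Kdm4d and mutant libraries shared 1 variance, 7 residual degrees of freedom and a median prior of 5.72. The Benjamini-Hochberg adjustment ran over all genes tested, and a gene was called at an adjusted p-value under 0.05. The fit was tested on simulated data with known fold changes. It recovered 21% of 100 changes of log2 1 and 90% of 100 changes of log2 2, with 4 false calls among 13218 genes tested. The simulated noise was drawn with the fit's own variances and weights, so the simulation cannot check these.

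Genes named were Kdm4d, 12 called rises and 12 called falls, the largest for which a group averaged 5 FPKM or more and the libraries did not overlap, the 10 largest differences between SCNT and IVF 2-cell embryos in each direction, and up to 2 called members in each direction of the 28 gene lists and 6 marker lists. The last 10, and further list members in the text, were chosen after values were seen. The lists and comparisons were chosen with earlier results of these data known. Starts had 1 added, since the table counts from 0. Of the tested genes, 13292 were matched to GENCODE transcripts to find stretches of 50 bases shared with other genes, and 1050 had over 30% shared. Spans of Sfi1, Gm13152, Nhp2, Aars, Dnmt3l, Usp29, Mcts2, Gins2, Ccnd2 and Fdft1 overlap other genes. Promoters came from a RefSeq table on GRCm38.p6, another build than mm9, and were matched by symbol. The 15 alternatives covered the spread, the libraries fitted, the pseudocount, the scaling, the filter, leaving out each library and a replicate block.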

Additional observations from a re-analysis of the deposited data

How the results depend on the processing

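With 1 variance for all groups, 2878 genes were higher and 3028 lower. In the fit to 4 libraries 0 were higher and 0 lower, and Kdm4d, still at 3.30, had an adjusted p of 0.107. Scaling to equal sums gave 917 rises, and upper quartile scaling 1299 falls. Leaving out 1 library in turn gave 173 to 1555 rises and 81 to 827 falls, the lowest without Kdm4d replicate 2. These fits assume that the lone library left in a group varies like those of the other group. The 1444 rises and 800 falls kept their sign in each of these fits. With the genes higher in SCNT chosen anew, their median was -0.85 at a pseudocount of 0.1, -0.81 with quantile normalization and -0.80 with upper quartile scaling. The other medians over genes low or high in SCNT kept their sign under the 15 alternatives. Of the uncalled genes, Mrps18a changed sign to -0.23 (quantile), -0.14 (equal sums) and -0.13 (upper quartile). Leaving out a library gave ranges that cross 0 for Mrps18a (-0.54 to 0.65, and -0.38 without Kdm4d replicate 2), Rpl39l (-0.29 to 0.78, and -0.17 without mutant replicate 2), Prm2 (-1.53 to 0.20) and Tie1 (-0.76 to 0.10). The cause was not tested.

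With the replicate number as a block there were 1876 rises and 1354 falls. Replicates with the same number deviated together only weakly (r = 0.304 over 5892 genes), and 2 pairs do not show that the numbers pair the samples. With relative depths of 0.415 to 0.507 and 2 libraries a group, precision is limited, and a missed call does not show that a gene did not differ.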
